A study of Homo sapiens with 8 samples.

Results

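The comparison described here is the effect of doxycycline (DOX) that NALM6 cells with either of 2 HMGN1 constructs had in common, taken over all 8 libraries of the series as 4 pairs of a DOX and a vehicle library. A pair holds the libraries with the same construct and the same replicate letter. Of 23713 rows in the table of expression values, 92 spike-in rows and 1715 rows with names of small RNAs were left out, and 11042 of the remaining 21906 had a mean of at least 1 FPKM over the 8 libraries and were tested. FPKM is a level per transcript length, scaled to the number of fragments mapped in the library. At the edge of this minimum, SLC9A3R2 had a mean of 0.9995 FPKM and lay just under it, and CCDC17 had 1.0004 and lay just over it. Of the genes tested, 546 (4.94%) were higher in the DOX library of all 4 pairs. Another 586 (5.31%) were lower in all 4, making 1132 genes (10.3%). Independent signs, equally likely either way, would agree in all 4 pairs for a share of 0.125.

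NALM6 is an established human line from B-cell precursor acute lymphoblastic leukemia. The WT libraries came from cells with wild-type HMGN1, and the SE libraries from cells with the S20,24E mutant of HMGN1, which per the labels lacks nucleosome binding. Per the labels' protocols, DOX at 100 ng/ml or vehicle was given for 6 h to induce HMGN1, RNA was taken from an equal number of cells, and ERCC spike-in RNA was added to each sample. Each of the 4 groups (WT vehicle, WT DOX, SE vehicle, SE DOX) held biological replicates A and B. The promoter that drives the constructs, and whether each line was a clone or a pool, are not given in the sources used here. Every DOX library came from cells with a construct, so that an action of the drug itself and an action of induction common to both constructs cannot be told apart.

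Doxycycline is a tetracycline antibiotic that switches tetracycline-controlled promoters on or off, and it also binds the ribosomes of mitochondria, which resemble those of bacteria. In other cells it is known to slow the making of mitochondrially encoded proteins, and an imbalance of mitochondrial proteins can raise ATF4, the transcription factor of the integrated stress response, with its targets in amino acid synthesis. HMGN1 binds nucleosomes and affects how chromatin is packed, so that the mutant serves as a control construct for effects that need this binding.

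Library depth is unknown because FPKM carry no counts, and counting intervals are therefore not given. The summed FPKM ran from 940127 to 1193810, and the library median of log2(FPKM + 0.1) over the genes tested ran from 3.93 to 3.94. All 15 B-lineage markers were among the genes tested, with summed FPKM of 2647 to 3077 in vehicle and 2612 to 3040 in DOX libraries. Of the markers of other cells, 1 of 10 T-cell genes (GATA3), 2 of 10 myeloid genes (LYZ and CD33), 0 of 7 erythroid genes and 0 of 9 genes of adherent cells reached the minimum. The summed level of the myeloid list was 2.60 to 5.58 FPKM in vehicle and 2.51 to 5.30 in DOX libraries, and 4 of its members were listed at 0 in every library. The labels name biological replicates without saying which cultures they came from, so p-values measure the spread between these pairs.

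HMGN1 is the gene that DOX was meant to induce, and in no pair was its level higher in the DOX library. It stood at 809.2 FPKM in vehicle and 792.9 in DOX in WT pair A, and at 796 and 795.3 in WT pair B. In SE pair A it stood at 1427 FPKM in vehicle and 1421 in DOX, and in SE pair B at 1066 and 1061. The vehicle and DOX groups overlapped, and the SE libraries were the higher ones under either treatment. The log2 ratio of DOX to vehicle was -0.01 (95% interval -0.06 to 0.04, 4 pairs), with an adjusted p of 1.00 in limma and a two-sided exact sign permutation p of 0.125, the smallest that 4 pairs allow. Induction was thus not seen in the level of this row in the libraries labelled DOX. FPKM values do not separate the construct's RNA from that of the cells' own gene. Whether reads of the construct were counted in this row was not tested.

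The 8 libraries showed 1 gene that passed the test, and no gene was called higher. TMEM160, a gene for a small transmembrane protein reported at mitochondria, fell by 0.24 on the log2 scale (SE 0.025, 95% interval -0.29 to -0.18) in a paired limma fit on log2(FPKM + 0.1), with an adjusted p of 0.0478. It made up 0.00906% of the genes tested in the lower direction, and genes called higher made up 0%. Without adjustment, 158 genes were higher (1.43%) and 219 lower (1.98%) at p under 0.05, 377 in all (3.41%).

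TMEM160 stood at 24.5 FPKM in vehicle and 20.1 in DOX in WT pair A, and at 16.5 and 14.2 in WT pair B. In SE pair A it stood at 17.1 FPKM in vehicle and 14.3 in DOX, and in SE pair B at 27.0 and 23.6. The DOX library was the lower one of every pair, by 0.28, 0.22, 0.25 and 0.19 in log2 units in that order. The vehicle and DOX groups overlapped, since levels differed more between the letters of a construct than between treatments. The DOX effect in WT was lower than that in SE by 0.03 in log2 units, with an interval of the difference from -0.15 to 0.09 and an adjusted p of 1.00 in limma. The call rested on the pairing and on all 4 pairs, since the adjusted p was 1.00 without the pairs as a block and 0.0668 to 0.267 when any 1 pair was left out. Over all alternatives it ran from 0.0164 to 1.00.

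**Figure D1:**
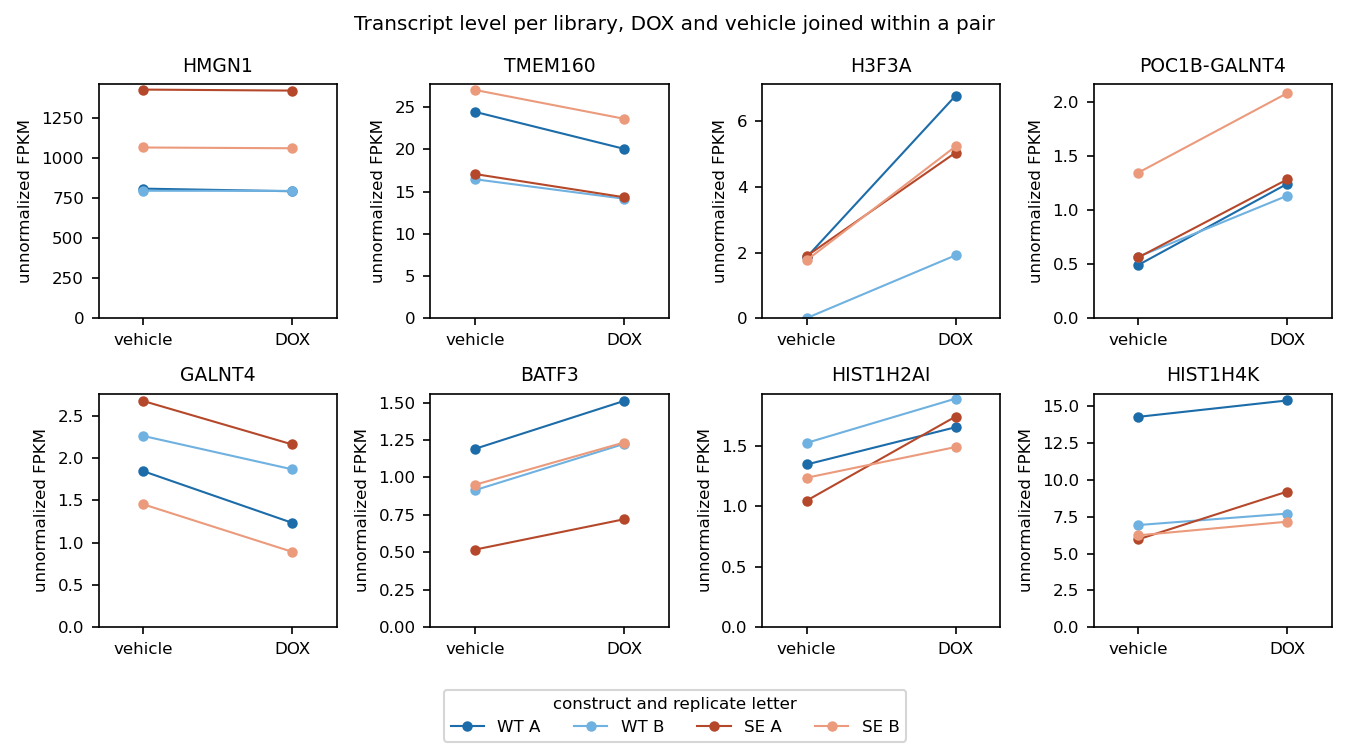
FPKM on the vertical axes (unnormalized table) of single genes in the vehicle and the DOX library of each pair, with points for libraries and lines joining the libraries of a pair, in blue for WT and red for SE. HMGN1 stays level in every pair, whereas TMEM160 is lower in the DOX library of each pair, from 24.5 to 20.1 FPKM in WT pair A.

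Differences between treatments were small over nearly all genes in the paired fit of the unnormalized table. The median half-width of the 95% interval was 0.0676 in log2 units in that fit. Without the pairs as a block it was 0.157. With the pairs as a block, the 95% interval of the log2 ratio lay within 1.2-fold of no change for 10522 genes (95.3%) and within 1.5-fold for 11011 (99.7%). Fitted ratios beyond 1.2-fold were found for 31 genes and beyond 1.5-fold for 9. The central 98% of the fitted log2 ratios lay between -0.14 and 0.14. Their spread narrowed with the level: the SD was 0.120 in the lowest of 5 level classes, with a median of 2.40 FPKM, and 0.0212 in the highest, with a median of 74.4 FPKM. Genes with the same sign in all 4 pairs made up 13.2% of the lowest class and 8.65% of the highest.

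**Figure D2:**
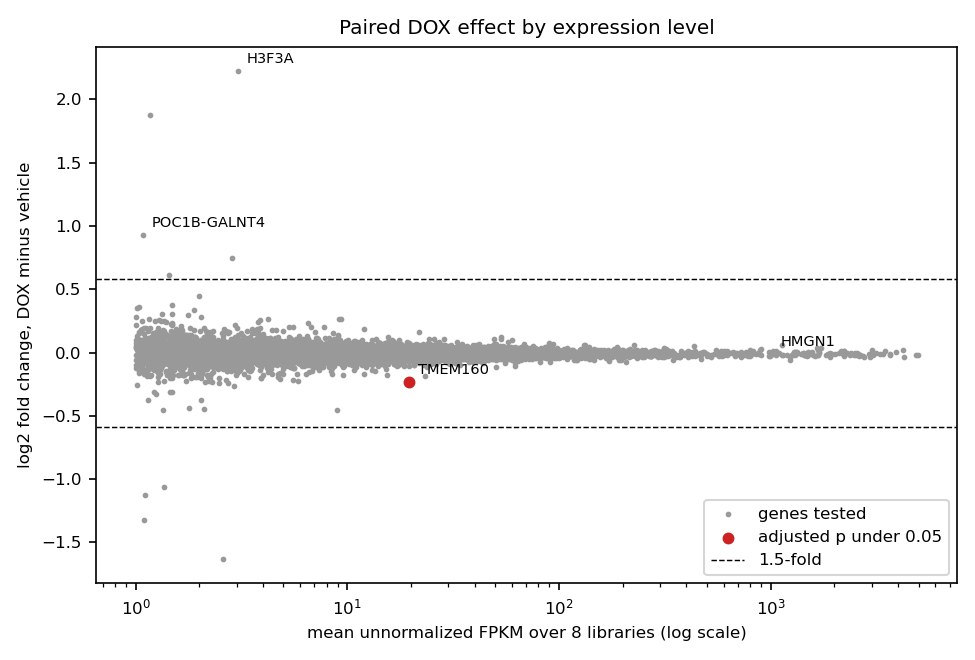
Fitted log2 ratio of DOX to vehicle (vertical axis) against the mean FPKM over the 8 libraries (horizontal axis, log scale), 1 point a gene over the 11042 genes tested, with TMEM160 in red and dashed lines at 1.5-fold. Points fan out at low levels, and the SD of the ratio falls from 0.120 in the lowest of 5 level classes to 0.0212 in the highest.

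Most genes did not go the same way in all 4 pairs. Genes higher in all 4 pairs made up 4.94% of those tested and genes lower in all 4 made up 5.31%, 10.3% in either direction. That is under the share of 0.125 that independent, equally likely signs would give. The count by itself therefore does not show a shared effect. Genes with 3 pairs one way made up 49.1% (5417), and genes with 2 pairs each way 40.6% (4487). Genes higher in both WT pairs and lower in both SE pairs numbered 560 (5.07%), and the opposite pattern 638 (5.78%). Between WT and SE, the log2 ratios averaged over the pairs of a construct had a Pearson r of -0.228 and a Spearman rho of -0.02 across the 11042 genes, which are not independent replicates. The 6 values of Pearson r between single pairs ran from -0.471 (WT B and SE B) to 0.153 (WT A and SE B), and those of Spearman rho from -0.276 (WT B and SE B) to 0.258 (WT B and SE A). The test of a difference in the DOX effect between constructs called 0 genes (0%) in limma, with 397 (3.6%) at an unadjusted p under 0.05.

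**Figure D3:**
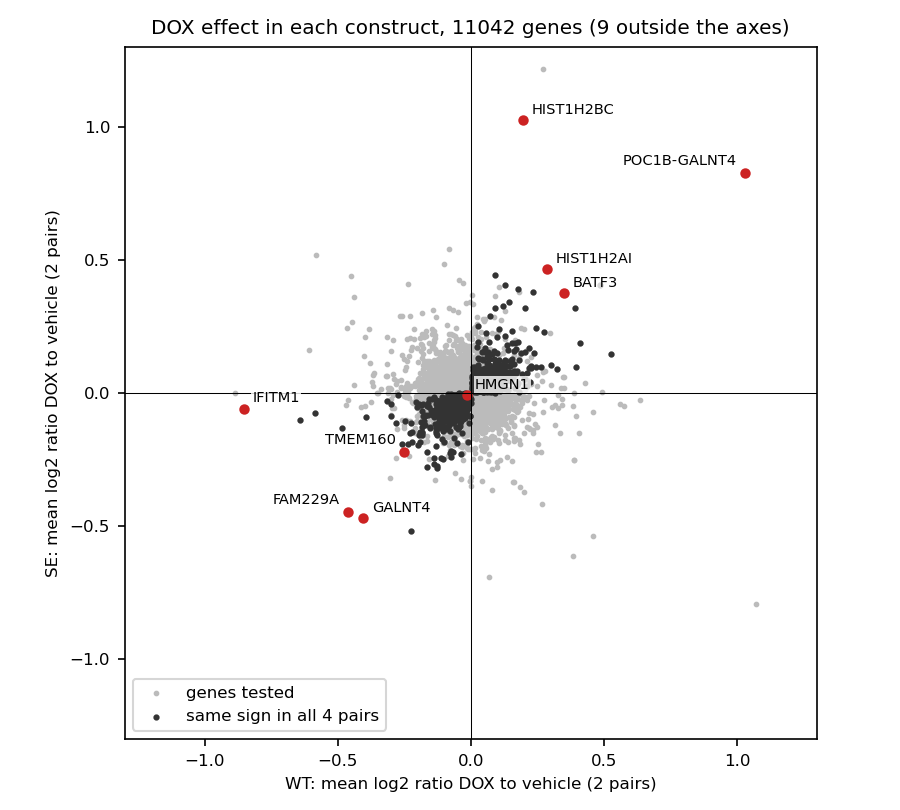
Log2 ratio of DOX to vehicle in WT (horizontal axis) against that in SE (vertical axis), each the mean of 2 pairs, 1 point a gene over the 11042 genes tested, with named genes marked and 9 genes outside the axes. The cloud is centred on 0 with HMGN1 inside it. Across all 11042 genes, with those outside the axes included, Pearson r was -0.228 and Spearman rho -0.02. Dark points belong to the 1132 genes with the same sign in all 4 pairs.

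Among genes with the same sign in all 4 pairs, those with a smallest pair change of at least 0.1 in log2 units numbered 13 in the higher direction (0.118%) and 15 in the lower (0.136%). At a smallest pair change of at least 0.05 there were 62 (0.561%) and 60 (0.543%), and at 0.2 there were 5 (0.0453%) and 1 (0.00906%). The 12 with the largest smallest-pair change in each direction are described next, and none of them but TMEM160 passed the test. Most had low levels: their median was 1.77 FPKM, against 15.2 over all genes tested. Exonic bases on the same strand were shared with another gene by 7 of the 22 that could be matched to GENCODE release 29 (31.8%), against 1831 of the 10152 tested genes that could be matched (18.0%). Among the 7 were CTRL (87.4% of its exonic bases), KRBA2 (73.7%), GUSBP4 (67.9%) and IGLL5 (34.5%). Reads of those stretches need not belong to the gene named.

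POC1B-GALNT4, a read-through transcript that joins the centriole gene POC1B to GALNT4, and GALNT4, which encodes an enzyme that starts O-linked glycan chains, went opposite ways. POC1B-GALNT4 stood in the vehicle and DOX libraries at 0.493 and 1.24 FPKM in WT A, 0.569 and 1.13 in WT B, 0.563 and 1.28 in SE A, and 1.34 and 2.08 in SE B. Its log2 ratio was 0.93 (SE 0.11, 95% interval 0.68 to 1.17, adjusted p 0.0605 in limma), and the groups overlapped only through the vehicle library of SE B. GALNT4 stood at 1.84 and 1.23 FPKM in WT A, 2.26 and 1.87 in WT B, 2.67 and 2.16 in SE A, and 1.45 and 0.891 in SE B. Its log2 ratio was -0.44 (SE 0.080, adjusted p 0.673 in limma), and its groups overlapped. Of the 5399 exonic bases of GALNT4, 5033 (93.2%) lie in exons of POC1B-GALNT4, so reads of this stretch can be divided between the rows. The part of such division in the opposite ratios was not tested. GALNT4 held 78.9% of the sum of both rows in vehicle and 49.8% in DOX in WT A, 79.9% and 62.2% in WT B, 82.6% and 62.7% in SE A, and 51.9% and 30.01% in SE B. The sum itself differed by 0.08, 0.08, 0.09 and 0.08 in log2 units between the libraries of the pairs, and POC1B had a log2 ratio of -0.04. A pseudocount of 0.5 or 1 in place of 0.1 brought POC1B-GALNT4 past the threshold, at ratios of 0.66 and 0.49.

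H3F3A, a gene for the replication-independent histone H3.3, had the largest log2 ratio of the 12 higher genes. It stood at 1.86 FPKM in vehicle and 6.78 in DOX in WT A, at 0.01 and 1.92 in WT B, at 1.90 and 5.04 in SE A, and at 1.77 and 5.23 in SE B. Every DOX library lay above every vehicle library, and the ratio was largest in WT B, where the vehicle value was the lowest one the table gives above 0. The log2 ratio was 2.22 (SE 0.38, 95% interval 1.36 to 3.08), with an adjusted p of 0.632 in limma. It passed the threshold with a pseudocount of 0.5 or 1 and without WT B, at smaller ratios of 1.60, 1.301 and 1.56. The row of H3F3AP4, an H3F3A pseudogene, held most of the FPKM of this sequence: 797.5 in vehicle and 785.3 in DOX in WT A, 946.3 and 925.5 in WT B, 793.1 and 784.6 in SE A, and 877.2 and 887 in SE B. H3F3A made up 0.233%, 0.00106%, 0.239% and 0.201% of the sum of both rows in the vehicle libraries and 0.855%, 0.207%, 0.639% and 0.587% in the DOX libraries, in the order WT A, WT B, SE A, SE B. The sum had a mean log2 ratio of -0.01, as had H3F3B, the other H3.3 gene. Reads of near-identical copies can be divided between rows, and its part in the result was not tested.

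A further read-through transcript, FKBP1A-SDCBP2, was lower in the DOX library of each pair, at 2.35 and 1.498 FPKM in WT A, 0.801 and 0.01 in WT B, 1.59 and 1.10 in SE A, and 1.86 and 1.71 in SE B. Its log2 ratio was -1.06 (SE 0.39, 95% interval -1.93 to -0.19, adjusted p 1.00 in limma), and the groups overlapped. Without WT B, whose DOX value was 0.01 FPKM, the ratio was -0.41, and with a pseudocount of 1 it was also -0.41. FKBP1A, which encodes a prolyl isomerase that binds FK506, had a mean log2 ratio of -0.01.

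Replication-dependent histone genes, whose RNA ends in a stem-loop rather than a poly(A) tail and is made mainly in S phase, had 2 members among the 12 higher genes, HIST1H2AI and HIST1H4K. Per the labels, the libraries were made from poly(A) RNA. The gene list for this family held 29 genes but left out HIST1H2AI and HIST1H4K. Of the 29, 11 were tested, with 0 higher and 0 lower in all 4 pairs and a median log2 ratio of 0.04. Over all 22 tested rows with histone names, a set chosen after its values were seen, 5 were higher in all 4 pairs (22.7%, against 4.94% of all genes tested) and 0 lower (against 5.31%), 18 had a fitted ratio above 0, and the median was 0.10. The median level of these rows was 1.82 FPKM. In the lowest level class, 13.2% of genes had the same sign in all 4 pairs, counting both directions together. A share for the higher direction alone was not computed for that class. The 22 rows are not all separate measurements. HIST2H4A and HIST2H4B had the same value in every library. HIST2H2AA3 and HIST2H2AA4 had nearly the same values, as had HIST1H4J and HIST1H4K, which are both among the 5.

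The 5 rows were HIST1H2AI, HIST1H2AJ, HIST1H2BL, HIST1H4J and HIST1H4K, genes for histones H2A, H2B and H4 in the large histone cluster. The gene list for the family left out all 5. Promoters of 4 of them and of TMEM160 are shown so that a reader can see how alike the histone ones are. Each line gives 250 bases before the RefSeq start on GRCh38.p14, 5′ to 3′ in the direction of the gene, and capitals mark 4 motifs on either strand. The TATA box was searched as TATAAA. The octamer, bound by POU factors in histone H2B promoters, was searched as ATGCAAAT. The box named CCAAT was searched by those letters. The GC box, bound by SP factors, was searched as GGGCGG. The windows are chr6:27807923-27808172 (plus strand) for HIST1H2AI, chr6:27814778-27815027 (minus) for HIST1H2AJ, chr6:27823842-27824091 (plus) for HIST1H4J, chr6:27831561-27831810 (minus) for HIST1H4K and chr19:47048625-47048874 (minus) for TMEM160.
HIST1H2AI: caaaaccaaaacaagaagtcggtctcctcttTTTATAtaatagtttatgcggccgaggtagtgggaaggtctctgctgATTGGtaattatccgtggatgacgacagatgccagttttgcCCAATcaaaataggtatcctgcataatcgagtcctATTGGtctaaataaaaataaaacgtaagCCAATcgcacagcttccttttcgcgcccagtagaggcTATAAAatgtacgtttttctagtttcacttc
HIST1H2AJ: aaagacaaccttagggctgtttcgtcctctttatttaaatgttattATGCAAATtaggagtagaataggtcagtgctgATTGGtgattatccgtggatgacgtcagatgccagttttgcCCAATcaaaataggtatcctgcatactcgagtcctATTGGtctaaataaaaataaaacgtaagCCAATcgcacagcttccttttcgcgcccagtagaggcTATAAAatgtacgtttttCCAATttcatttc
HIST1H4J: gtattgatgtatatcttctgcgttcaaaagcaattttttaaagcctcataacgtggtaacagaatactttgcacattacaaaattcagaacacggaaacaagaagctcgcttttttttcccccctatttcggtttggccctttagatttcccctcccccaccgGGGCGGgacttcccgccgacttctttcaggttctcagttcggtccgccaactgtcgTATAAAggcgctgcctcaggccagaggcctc
HIST1H4K: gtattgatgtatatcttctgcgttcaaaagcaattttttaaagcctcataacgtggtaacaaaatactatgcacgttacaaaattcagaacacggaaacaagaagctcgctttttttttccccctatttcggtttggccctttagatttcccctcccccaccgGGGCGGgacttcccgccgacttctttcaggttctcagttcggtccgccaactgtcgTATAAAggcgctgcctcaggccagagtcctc
TMEM160: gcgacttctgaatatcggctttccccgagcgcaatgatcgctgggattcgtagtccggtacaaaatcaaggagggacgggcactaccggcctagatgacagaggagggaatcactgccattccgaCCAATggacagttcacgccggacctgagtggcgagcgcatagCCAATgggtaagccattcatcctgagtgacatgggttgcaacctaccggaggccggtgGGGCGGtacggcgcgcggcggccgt
Position by position, the windows of HIST1H4J and HIST1H4K agree at 245 of 250 bases (98.0%) and those of HIST1H2AI and HIST1H2AJ at 205 (82.0%), against 69 (27.6%) between HIST1H2AI and HIST1H4K. The pairs of windows share the arrangement of a TATA box near the start, with boxes of the CCAAT kind before it in the H2A genes and a GC box before it in the H4 genes. Of 35116 promoters of this length, 10.7% held a TATA box of these letters, 32.0% a CCAAT box, 42.6% a GC box and 1.63% an octamer.

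HIST1H2AJ stood at 1.74 FPKM in vehicle and 2.56 in DOX in WT A, 1.82 and 2.49 in WT B, 1.34 and 2.35 in SE A, and 1.79 and 1.85 in SE B, and its groups did not overlap. HIST1H2AI stood at 1.35 and 1.65 in WT A, 1.52 and 1.89 in WT B, 1.05 and 1.74 in SE A, and 1.24 and 1.49 in SE B. Their log2 ratios were 0.45 (SE 0.10) and 0.38 (SE 0.087), each with an adjusted p of 1.00 in limma. HIST1H4K stood at 14.3 and 15.4 FPKM in WT A, 6.93 and 7.71 in WT B, 5.96 and 9.20 in SE A, and 6.23 and 7.16 in SE B. HIST1H4J, whose sequence is close to it, ran alongside, and both had a log2 ratio of 0.27 with overlapping groups. The largest change for HIST1H2AI, HIST1H4J and HIST1H4K lay in SE A, at 0.68, 0.62 and 0.62, and without SE A the ratio of HIST1H4K was 0.15. HIST1H2BC, a list member, had a larger fitted ratio of 0.61 (0.96 without WT A) but was lower with DOX in WT A.

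The other higher genes had smaller ratios or low levels. BATF3, a leucine zipper factor of immune cells, stood 0.32, 0.38, 0.41 and 0.34 log2 units higher in the DOX libraries of WT A, WT B, SE A and SE B, and its fitted ratio was 0.36 (SE 0.082, adjusted p 1.00 in limma). GUSBP4, a pseudogene of the lysosomal enzyme gene GUSB, had a ratio of 0.26 (SE 0.047, adjusted p 0.673), and its relative GUSBP1 one of 0.11, while GUSB itself had -0.02. APOBEC3H, a cytidine deaminase that restricts retroviruses, had 0.24 (0.14 without SE B), TMEM38A, a potassium channel of the endoplasmic reticulum, 0.25, and METTL12, a mitochondrial methyltransferase gene, 0.19. IGLL5, an immunoglobulin lambda-like gene, had 0.16, the clotting factor gene F8 0.17 and KRBA2 0.15. All had overlapping groups and an adjusted p of 0.673 to 1.00 in limma.

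The other lower genes were equally small or low. FAM229A had a log2 ratio of -0.45 (SE 0.10) and CDRT15 one of -0.37 (SE 0.086), NECAB3 had -0.22 and JOSD2, a deubiquitinase gene, -0.21. DMC1, the meiotic recombinase, had -0.20, the chymotrypsin-like protease gene CTRL -0.20, RRAS, a small GTPase of the RAS family, -0.19, MST1, which encodes macrophage-stimulating protein, -0.19 and OVGP1, oviductal glycoprotein, -0.17. All of these had an adjusted p of 1.00 in limma and groups that overlapped.

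**Figure D4:**
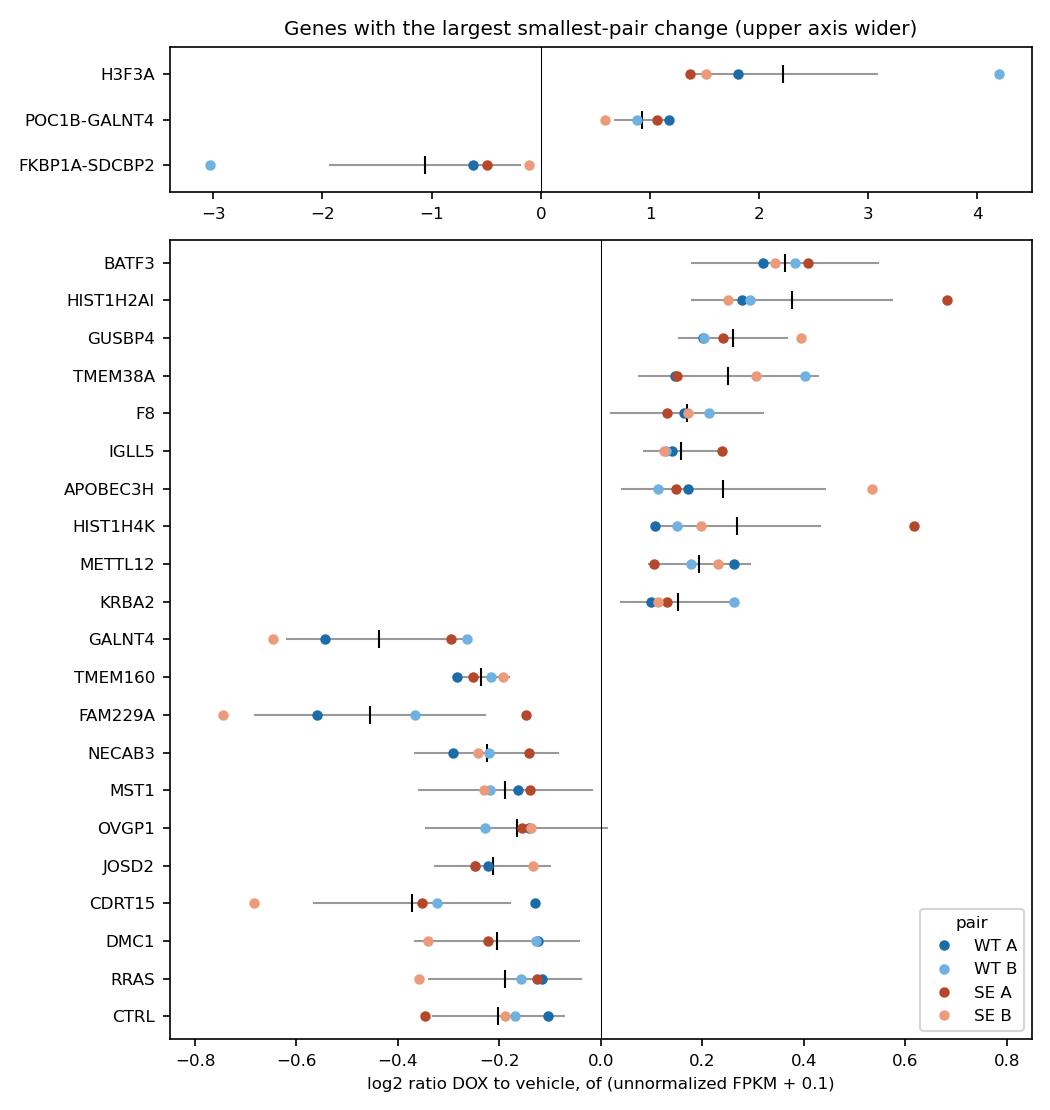
Log2 ratio of DOX to vehicle, of (unnormalized FPKM + 0.1), in the 4 pairs (points) with the fitted ratio (tick) and its 95% interval (bar), for the 12 genes higher and the 12 lower with the largest smallest-pair change. The upper axis is wider and holds H3F3A, POC1B-GALNT4 and FKBP1A-SDCBP2, and TMEM160 has the narrowest bar of the lower axis, from -0.29 to -0.18.

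Groups that did not overlap were found for 11 genes higher (0.0996%) and 9 lower (0.0815%). Apart from H3F3A and HIST1H2AJ they included REL, an NF-kappaB subunit of B cells, whose log2 ratio was 0.20 (SE 0.052, adjusted p 1.00 in limma). REL was higher in the DOX library of every pair, by 0.19, 0.42, 0.08 and 0.13, and its ratio without WT B was 0.13. Of the 12 NF-kappaB targets tested, REL was the 1 higher in all 4 pairs (8.33%, against 4.94% of all genes). In the other direction, 1 was lower (8.33%, against 5.31%), and the list median was 0.01. RELB, a further subunit, had 0.16 but was lower with DOX in SE B. DBP, a clock output factor chosen after its values were seen, had -0.20.

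The gene lists gave no called member, and their medians lay close to 0 on the log2 scale. The median over all genes tested was -0.00, with pair values of 0.00, -0.01, -0.00 and 0.00 and a two-sided exact sign permutation p of 0.625 for their mean. All lists had 0 called members in limma, against 0.00906% of all genes.

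Genes of the mitochondrion were the first group to examine with this drug. The 13 genes of mitochondrial DNA were not analysed here. Among the nuclear genes of mitochondrial ribosomes, 76 were tested, with 8 lower in all 4 pairs (10.5%, against 5.31% of all genes tested), 0 higher (against 4.94%), 2 at an unadjusted p under 0.05 (2.63%, against 3.41%) and a median of -0.01. MRPL20 had a log2 ratio of -0.06 and MRPL32 one of -0.05. The respiratory chain held 76 tested subunits, with 2 higher and 2 lower in all 4 pairs (2.63% each, against 4.94% and 5.31%). Its median was -0.01, and NDUFV3, a complex I subunit, had 0.09. For both lists and for the 77 cytosolic ribosomal proteins, the pair medians went both ways: for cytosolic ribosomal proteins they were -0.01, -0.06, -0.04 and 0.06 in WT A, WT B, SE A and SE B. The 16 mitochondrial chaperones and proteases had 1 member lower in all 4 pairs (6.25%, against 5.31%) and 0 higher. It was OMA1, the protease that relays mitochondrial stress, at -0.09 (SE 0.024, adjusted p 1.00 in limma). Of the 19 mitochondrial translation and transcription factors, 0 had the same sign in all 4 pairs, and TSFM had -0.05 and TUFM -0.03.

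The integrated stress response, with 34 of 38 genes tested, had 2 higher and 2 lower in all 4 pairs and a median of -0.00. Each was 5.88% of the list, against 4.94% higher and 5.31% lower of all genes tested. CEBPB, a transcription factor of this response, had a log2 ratio of 0.18 (SE 0.057, adjusted p 1.00 in limma), or 0.11 without SE A, and PPP1R15A, the phosphatase subunit that ends it, had -0.06. In the paired fit of the unnormalized table, the intervals of 33 of the 34 lay within 1.2-fold of no change. Endoplasmic reticulum stress (19 genes), heat shock chaperones (14), oxidative stress (16), metal handling (17) and glycolysis and hypoxia (27) each had 1 gene lower in all 4 pairs and 0 higher. The share lower ran from 3.7% (glycolysis and hypoxia) to 7.14% (heat shock chaperones), against 5.31% of all genes tested. Every tested member of these 5 lists had an interval within 1.2-fold in the same fit.

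Growth and cycle genes showed small ratios in either direction. Shares of these lists stand against 4.94% higher and 5.31% lower in all 4 pairs over all genes tested. Of 20 MYC and polymerase I genes, 1 was higher (5%) and 5 were lower (25%) in all 4 pairs. The lowest of the 5, NOP58, a box C/D snoRNP protein, had -0.03. POLR1A, the largest subunit of polymerase I, was the higher one at 0.04. Of 23 G1/S genes, 1 was higher (4.35%) and 4 were lower (17.4%), with CCNE1, the cyclin that drives S phase entry, at -0.09. Of 23 G2/M genes, 2 were higher (8.7%) and 0 lower, with a median of 0.02, and MKI67, the proliferation marker, had 0.04. Cholesterol and fatty acid synthesis had 4 of 24 higher (16.7%) and 0 lower, with ACACA, which makes malonyl-CoA, at 0.04. The HMGN family had 2 of 5 genes lower (40%), 0 higher and a median of -0.02. The 2 were HMGN1 itself at -0.01 and HMGN5 at -0.03.

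Interferon-response genes held 3 higher (10%) and 4 lower (13.3%) of 30 in all 4 pairs, against 4.94% and 5.31% of all genes tested. IFITM1, which restricts virus entry, stood in vehicle and DOX at 10.1 and 6.19 FPKM in WT A, 18.8 and 9.33 in WT B, 9.13 and 9.83 in SE A, and 4.30 and 3.67 in SE B. Both WT pairs were lower with DOX, and the SE pairs went both ways. Its fitted ratio was -0.46 (SE 0.14), or -0.27 without WT B, and the WT effect was lower than the SE effect by 0.79 in log2 units (interval of the difference -1.08 to -0.51), with an adjusted p of 0.516 in limma. IFI44 had 0.22, or 0.14 without SE B, and was higher in each pair. In the B-lineage list, 1 of 15 was higher in all 4 pairs (6.67%, against 4.94% of all genes tested). It was PAX5, the factor that fixes B-cell identity, at 0.07 (95% interval 0.02 to 0.11, adjusted p 1.00 in limma).

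**Figure D5:**
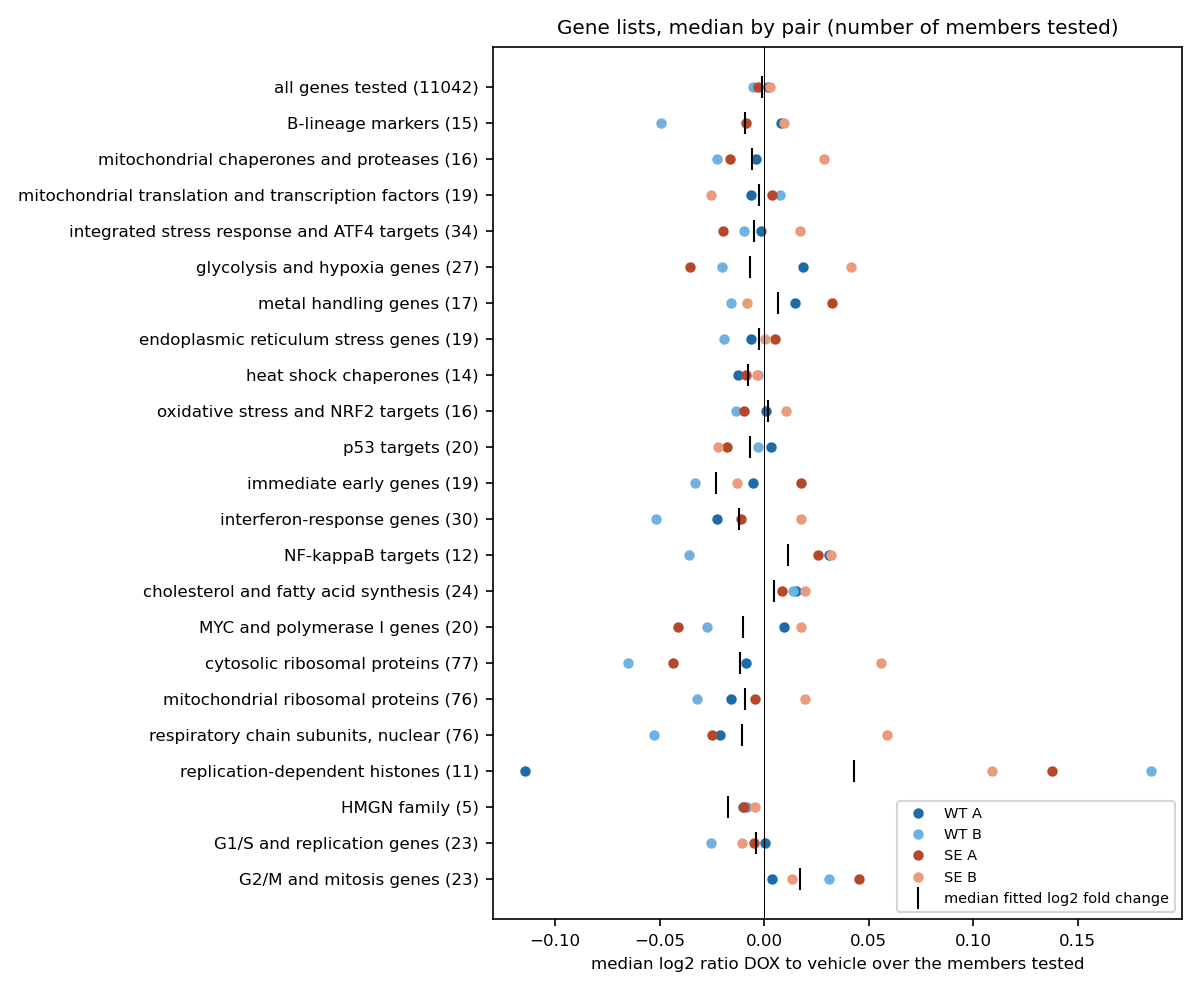
Median log2 ratio of DOX to vehicle (horizontal axis) over the tested members of each gene list in the 4 pairs (points) and for the fitted ratio (tick), with the number of members tested in brackets. List medians scatter on both sides of 0, and among the lists drawn the 11 tested histones spread most, from -0.11 in WT A to 0.18 in WT B.

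The unnormalized table is scaled to mapped fragments and does not measure RNA per cell. In the authors' normalized table, the alternative, the median over all genes was -0.14 (exact sign permutation p 0.125), and the pair medians were -0.02, -0.05, -0.35 and -0.13. On that scale 10 genes were higher and 4841 lower in all 4 pairs, against 546 and 586, and limma called 13 genes, among them H3F3A, POC1B-GALNT4, GALNT4, FAM229A, CDRT15, FKBP1A-SDCBP2 and IFITM1 but not TMEM160. Every list with a tested member had a median below 0 there, also those above 0 on the unnormalized scale (replication-dependent histones, G2/M genes, cholesterol and fatty acid synthesis, NF-kappaB targets, metal handling, oxidative stress and the T-cell list with its single gene GATA3), and 13 named list genes turned below 0, among them PAX5, NDUFV3, ACACA and MKI67. The share of spike-in FPKM was higher in DOX than in vehicle by 0.02, 0.03, 0.37 and 0.09 in log2 units in WT A, WT B, SE A and SE B, a mean of 0.13 with an exact sign permutation p of 0.125, the smallest that 4 pairs allow.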

How the data were processed

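RNA-seq libraries from NALM6 cells were analysed from the authors' deposited FPKM tables. The tools named in the submitters' processing notes are HISAT and Cufflinks 2.0.0, with hg19 as the genome build. The sources used here do not say how the normalized FPKM table was scaled. The authors' unnormalized FPKM values were the main measure, because the rule for the comparison names that table. No read counts were used, so no count test was run. Values were analysed as log2(FPKM + 0.1) after leaving out spike-ins, small RNA names and genes with a mean under 1. Fold changes on this scale understate the change of low genes.

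A linear model was fitted in limma 3.58.1 (R 4.3.3), with moderated variances that follow a trend with the mean, to the 4 pairs as a block and a DOX term, with Benjamini-Hochberg adjustment over 11042 genes and a threshold of 0.05. A second model added the WT minus SE difference. Exact sign permutation over 4 pairs has 16 patterns and a smallest two-sided p of 0.125. Same-letter libraries deviated together, with correlations of 0.757 in WT and 0.720 in SE, which supports treating letters as pairs, though the labels only call them replicates.

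The comparison and the 27 gene lists were chosen with earlier results of these data known. Named genes were HMGN1, genes called, the 12 genes with the largest smallest-pair change in each direction, and the 2 of smallest p per list. LOC and LINC names were skipped. Another gene examined is not reported here. A fit of this kind was tested on simulated data. Promoters came from RefSeq (GRCh38.p14), where 16 of 24 genes matched, and shared exons from GENCODE release 29. Coordinates of the files' build are not used here. Alternatives were the normalized table, equal library medians, pseudocounts of 0.5 and 1, other minimum levels, small RNA names kept, no mean-variance trend, no replicate block, and leaving out each pair. Equal medians of the normalized table was added after seeing the data.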

Additional observations from a re-analysis of the deposited data

Results flagged for a closer look

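Among 72 named genes, 10 had 1 pair whose log2 ratio lay far from those of the other 3. About 1 in 20 groups of values are flagged by chance. H3F3A stood at 4.20 in WT B, HIST1H2AI at 0.68 in SE A, IGLL5 at 0.24 in SE A, APOBEC3H at 0.53 in SE B and RRAS at -0.36 in SE B. TUFM stood at -0.11 in SE A, SDF2L1 at -0.17 in WT B, HMGN5 at -0.069 in WT B, HMGN4 at -0.070 in SE A and MKI67 at -0.031 in SE B.

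The spike-in share was higher in the DOX library of all 4 pairs, with a mean log2 ratio of 0.13 (exact sign permutation p 0.125, the smallest that 4 pairs allow). The spike-in rows are outside the gene comparison.

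SNORD116-20, a small nucleolar RNA row left out of the genes tested, was listed at 0 in all 4 vehicle libraries and at 34.1, 43.9, 31.3 and 41.5 FPKM in the DOX libraries of WT A, WT B, SE A and SE B. Its log2 ratio of 8.55 rests on the pseudocount, and it had an adjusted p of 9.1e-06 in limma when small RNA names were kept. Since the 4 vehicle values are equal, the spread between its pairs comes from the DOX libraries alone. Small RNA rows varied widely: 31.9% (SE B) to 38.6% (WT B) of them differed by over 1 in log2 units within a pair. For the genes tested this share was 0.05% (WT A) to 0.14% (WT B). Of 298 small RNA rows with a mean of at least 1, 177 were listed at 0 in at least 1 library, 1 was at 0 in all vehicle libraries and above 0 in all DOX libraries, and 0 had the reverse pattern.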

How the results depend on the processing

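TMEM160 was also called with equal library medians, either pseudocount, a minimum mean of 5, at least 1 FPKM in each library, and equal medians of the normalized table (added after seeing the data). It was not called in the normalized table (adjusted p 0.0594 in limma), without a minimum mean (0.935), with small RNA names kept (0.341) or without the trend (0.317). The number of genes called was 13 in the normalized table (1, TMEM160, with equal medians of it), 3 with a pseudocount of 0.5 or 1, and 0 without a minimum mean, without the trend or without the replicate block (25 at unadjusted p under 0.05). Leaving out a pair gave 0 to 2 calls. Without WT B the 2 were DEFB109P1 and H3F3A. Over the remaining 3 pairs 1009 to 1585 genes were higher and 1049 to 1652 lower in all. In the normalized table these counts were 10 and 4841 over 4 pairs, and the median was -0.14. The 13 calls there came from a fit in which a gene's own spread between pairs did not count. The construct difference called 29 genes there, 7 with small RNA names kept and 2 to 24 with a pair left out, where 1 construct has a lone pair that is assumed to vary like the others. The causes were not tested. Signs reversed in the normalized table for PAX5 (-0.071), GATA3 (-0.10), PFKP (-0.10), MT2A (-0.073), HSPA1B (-0.11), SOD2 (-0.12), SESN1 (-0.077), ACACA (-0.10), POLR1A (-0.10), RPS15 (-0.076), NDUFV3 (-0.051), MKI67 (-0.092) and TOP2A (-0.10). CD33 reversed with equal medians of the normalized table (0.00605). Leaving out a pair gave -0.21 to 0.11 for CD33 (above 0 without WT B or SE B), -0.0017 to 0.037 for HSPA1B (below 0 without SE B) and -0.025 to 0.00069 for HMGN4 (above 0 without SE A).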

Other observations

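Rows of the BMS1 pseudogene family had higher values with DOX in all 4 pairs for BMS1P1 (log2 ratio 0.14) and BMS1P5 (0.12), and the groups of both did not overlap. Both were picked once their values were known, and neither passed the test (adjusted p 1.00 in limma). NACA2, a copy of the NACA gene for a ribosome-associated chaperone subunit, had a log2 ratio of -0.18 (adjusted p 0.632 in limma). It was lower in each DOX library of a pair, while NACA had a mean log2 ratio of -0.03. NACA2 did not come from the rule for named genes. It held 2.46% (WT B, DOX) to 3.14% (WT A, vehicle) of the sum of both rows. Reads of copies can be divided between rows, and the part of this was not tested.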
